A study of Homo sapiens with 12 samples.

Results

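The 10 cytochrome P450 genes described here lie in 2 gene clusters, CYP2A6, CYP2A7, CYP2B6, CYP2A13 and CYP2S1 on chromosome 19 and CYP4B1, CYP4A11, CYP4X1, CYP4Z1 and CYP4A22 on chromosome 1. They are 10 of the 19970 protein-coding genes placed on chromosomes 1 to 22 and X. Their peaks were taken from the peak lists of pooled libraries wherever the summit fell within 50 kb of the gene span (hg38), and a peak shared by neighbouring genes was counted once. This gave 2 of the 2846 pooled KQ peaks and 13 of the 25164 pooled wild-type peaks. A pooled peak is called reproducible where a peak of each single library of its group overlapped it by at least 1 bp. Since the genes were chosen from these same lists, the numbers of peaks are descriptions, set beside those of all genes or all peaks and not tested.

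The study asked how the K154/155Q change in PPARγ alters the places at which the receptor binds DNA. Its KQ cells were MCF10A-NeuT cells, a transformed human mammary epithelial line, made by retrovirus to express PPARγ carrying that change (genotype label PPARg-KQ), and its wild-type cells were the same line made to express unaltered PPARγ (PPARg-WT). There were 2 chromatin immunoprecipitation (ChIP) libraries of each. The vector-control and input libraries were not analysed here. The antibody field names PPARγ and the design text names the Flag tag, so receptor made from the cells' own gene may be included. The labels do not say whether the libraries came from separate cultures or from how many clones, and the spread between them may be technical.

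The KQ lists were much the shorter ones, with 1263 and 1035 peaks in the KQ libraries on these chromosomes, against 18143 and 17859 in the wild-type libraries. Tags at the median summit numbered 17 and 16 in KQ libraries 1 and 2, against 15 and 8 in wild-type libraries 1 and 2. The median background at the peaks was 2.01 and 1.77 tags with KQ, against 1.41 and 0.448 with wild type. Both were lowest in wild-type library 2, but they describe called peaks and are no measure of sequencing depth. Peaks show where DNA was enriched, not whether a gene was expressed.

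PPARγ binds DNA together with a retinoid X receptor, mostly at a direct repeat of the hexamer AGGTCA spaced by 1 base. CYP4A enzymes hydroxylate fatty acids at the end of the chain, and in rodent liver their genes are classical targets of the related receptor PPARα. Enzymes of the CYP2A and CYP2B subfamilies act mainly on drugs and other foreign compounds, and CYP2B6 is a textbook target of the nuclear receptor CAR. CYP4Z1 is known for its expression in mammary tissue and breast cancer.

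Peaks of the pooled KQ libraries were called at 2 sites, both beside CYP2A6 and CYP2A7, and nowhere in the CYP4 cluster. The wild-type libraries had 7 pooled peaks in the CYP2A/2B cluster, of which 4 were reproducible, and 6 in the CYP4 cluster, of which 1 was reproducible. Both KQ sites were reproducible and both lay on reproducible wild-type peaks. Over all pooled KQ peaks 12.4% were reproducible and 80.4% were overlapped by a pooled wild-type peak. Over all pooled wild-type peaks 31.9% were reproducible, near the 5 of 13 seen here.

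By gene, 2 of the 10 had a pooled KQ peak, against 16.4% of all protein-coding genes, and the same genes had a reproducible one, against 2.68%. CYP2A6 and CYP2A7 each had both reproducible KQ sites within 50 kb. A count of 2 or more occurred for 0.0851% of all genes, 17 in number, with CYP2A6 and CYP2A7 among them. Both genes count the same 2 peaks, and they were chosen from these lists, so this share is a description only. Pooled wild-type peaks lay near 7 of the 10 genes, against 67.1% of all genes, and 5 had a reproducible peak, against 37.7%. The wild-type shares were thus close to those of all genes. Per Mb of window, the clusters held 2.23 pooled KQ peaks and 14.5 pooled wild-type peaks, against 1.13 and 10.3 over the windows of all protein-coding genes.

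In the single libraries the windows held 2 and 2 KQ peaks, against 12 and 9 wild-type peaks. The means were 2.00 ± 0 KQ peaks and 10.5 ± 2.12 wild-type peaks (SD, n = 2 each). These counts come from the lists that chose the genes and were not tested. Per 1000 peaks of a list the order was turned round, at 1.58 and 1.93 in the KQ libraries and 0.661 and 0.504 in the wild-type libraries. These rates rest on the same counts and on much shorter KQ lists, so they cannot show whether KQ peaks were enriched here. When only as many wild-type peaks as there are pooled KQ peaks were kept, those with the smallest q-values, 1 wild-type peak was left in the windows, the one downstream of CYP2A6.

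**Figure D1:**
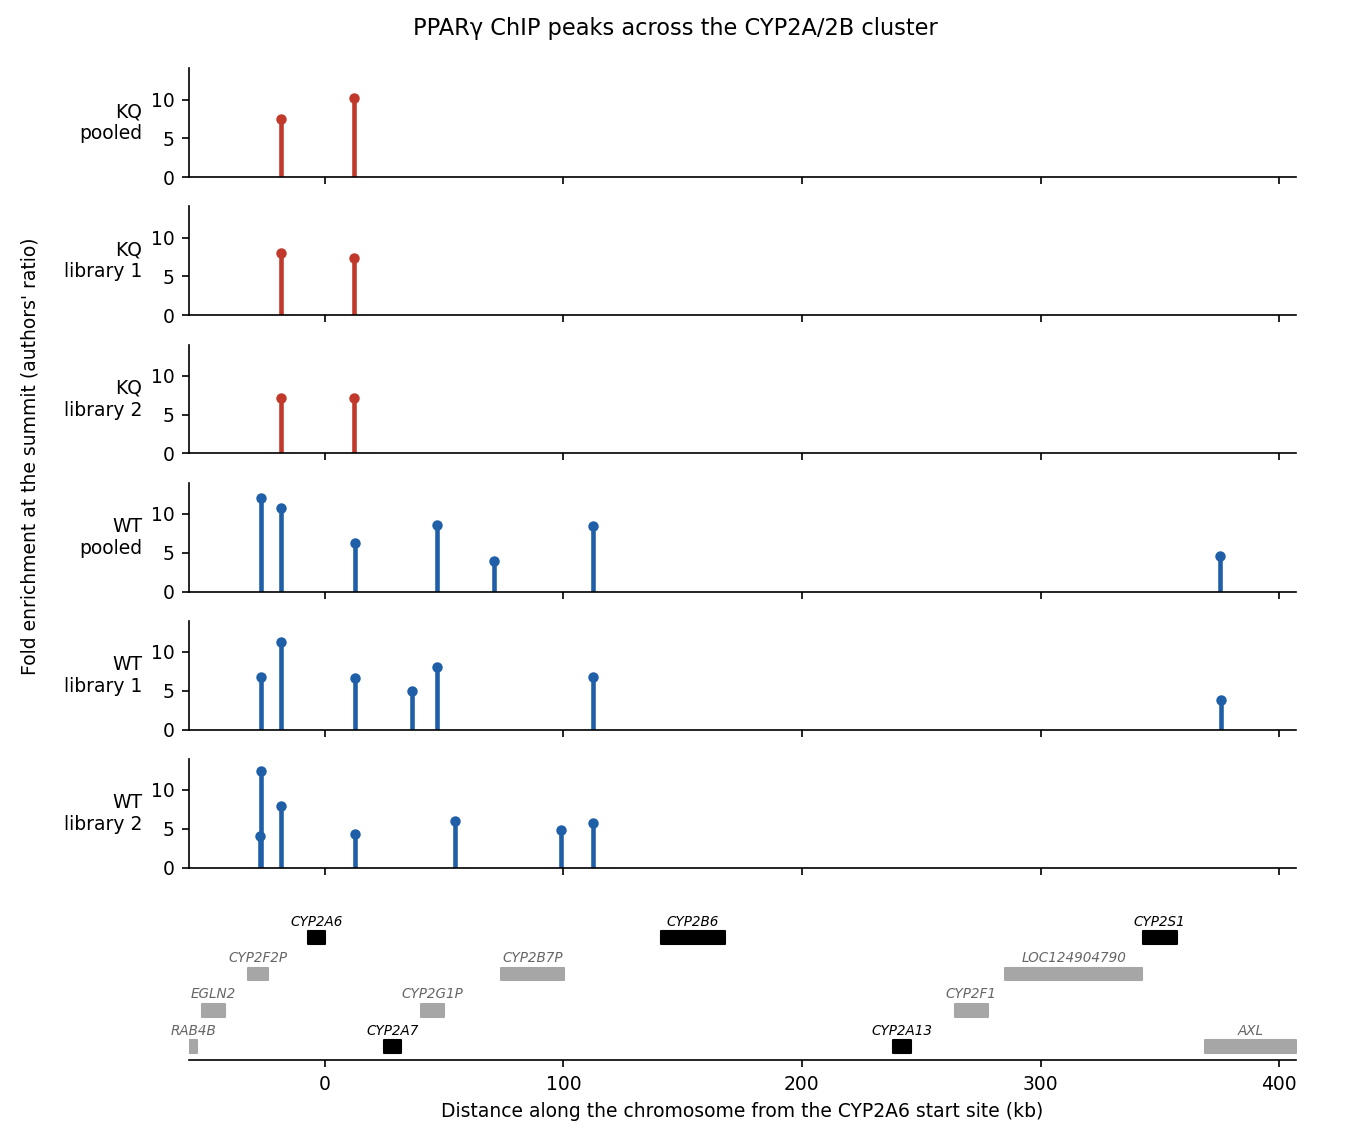
Peaks in the CYP2A/2B cluster in 6 lists, KQ above wild type (WT), with height giving the authors' fold enrichment and position in kb from the CYP2A6 start site. Black boxes are the genes described here and grey boxes other genes. Both KQ sites stand on either side of CYP2A6 in all 3 KQ lists, and the region from CYP2B6 to CYP2S1 holds no KQ peak.

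CYP2A6, the main nicotine-oxidising enzyme of liver (chromosome 19, 40843541 to 40850447, minus strand), and CYP2A7, its neighbour with no known catalytic function (40875439 to 40882231, minus strand), are a tandem pair. Their upstream stretches show how alike the copies are before their start sites. No pooled peak had its summit on these stretches, and the sequence of the KQ sites was not read. Of the 250 bases before each start site, 240 were identical, and the 10 differing bases are in capitals below. CYP2A13, a further copy active in the airways, shared 226 aligned bases with CYP2A6. Sequences here are from RefSeq (GRCh38.p14), written 5′ to 3′ in the direction of the gene. They lie at chr19:40850448-40850697 for CYP2A6 and chr19:40882232-40882481 for CYP2A7, both on the minus strand.
CYP2A6: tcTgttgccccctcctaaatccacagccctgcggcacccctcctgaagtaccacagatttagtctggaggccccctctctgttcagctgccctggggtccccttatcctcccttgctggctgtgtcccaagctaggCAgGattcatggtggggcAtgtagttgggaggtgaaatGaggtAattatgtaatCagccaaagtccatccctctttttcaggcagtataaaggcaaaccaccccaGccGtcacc
CYP2A7: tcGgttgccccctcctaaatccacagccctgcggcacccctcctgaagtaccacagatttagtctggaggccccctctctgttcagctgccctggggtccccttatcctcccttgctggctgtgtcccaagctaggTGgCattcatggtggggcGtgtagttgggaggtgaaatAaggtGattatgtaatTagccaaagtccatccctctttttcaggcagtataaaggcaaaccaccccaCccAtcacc

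The stronger of the shared sites in the wild-type lists lay downstream of CYP2A6, between genes. The KQ peak covered 40831867 to 40832337 on chromosome 19 with its summit 11.5 kb past the 3′ end of CYP2A6, and the wild-type peak covered 40831815 to 40832380 with its summit 11.3 kb past that end. The fold enrichment was 8.04 and 7.12 in KQ libraries 1 and 2, against 11.3 and 7.88 in wild-type libraries 1 and 2. The pooled folds were 7.55 for KQ, at percentile 93.2 of that list, and 10.8 for wild type, at percentile 89.6. By q-value the site stood at percentile 97.2 of the pooled KQ list and 97.4 of the pooled wild-type list. The site thus stood near the top of either list. When wild-type peaks were ranked by q-value and split into 10 groups of equal size, 37.5% of those in its group were overlapped by a KQ peak.

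Tags at the summit were recovered from the fold and p-value of each peak. The downstream site had 27 (95% Poisson interval 17.8 to 39.3) and 28 (18.6 to 40.5) tags in KQ libraries 1 and 2, against 50 (37.1 to 65.9) and 21 (13.0 to 32.1) in wild-type libraries 1 and 2. The background at the site was 2.48 and 3.07 tags in the KQ libraries, against 3.50 and 1.79 in the wild-type libraries. The KQ counts fell between the wild-type counts, and the wild-type libraries differed more from each other than from the KQ libraries. These counts are not scaled for sequencing depth, and the wild-type background differed too, at 3.50 against 1.79 tags. Their order thus does not rank the groups by binding. Intervals and tags cover counting error only.

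The other shared site lay between CYP2A6 and CYP2A7. The KQ peak covered 40862733 to 40863147, with its summit 12.4 kb upstream of the CYP2A6 start site and 12.6 kb past the 3′ end of CYP2A7. The wild-type peak covered 40862763 to 40863219, with its summit 12.6 kb upstream of that start site and 12.4 kb past that end. The fold enrichment was 7.34 and 7.18 in KQ libraries 1 and 2, against 6.59 and 4.31 in wild-type libraries 1 and 2. Tags numbered 20 (12.2 to 30.9) and 18 (10.7 to 28.4) in the KQ libraries, against 21 (13.0 to 32.1) and 12 (6.20 to 21.0) in the wild-type libraries. The folds come from lists that differ in length and in tags per peak, and the tag counts of the groups overlapped. How often folds separate by group at other sites was not counted, so their order here is a description. In the pooled lists the fold was 10.2 for KQ, at percentile 98.7 of its list, and 6.26 for wild type, at percentile 52.4. Percentiles come from lists of unequal length, so they cannot show whether the site changed between the groups. Among wild-type peaks in the same q-value group, 9.82% were overlapped by a KQ peak.

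A ratio of the sites within a library does not depend on its depth. The downstream site held 57.4% (exact binomial 95% interval 42.2 to 71.7) and 60.9% (45.4 to 74.9) of the tags of both sites in KQ libraries 1 and 2, against 70.4% (58.4 to 80.7) and 63.6% (45.1 to 79.6) in wild-type libraries 1 and 2. The KQ shares were the lower ones, but the intervals overlapped widely and the groups were not tested against each other. The tags include background, and other pairs of sites were not compared.

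**Figure D2:**
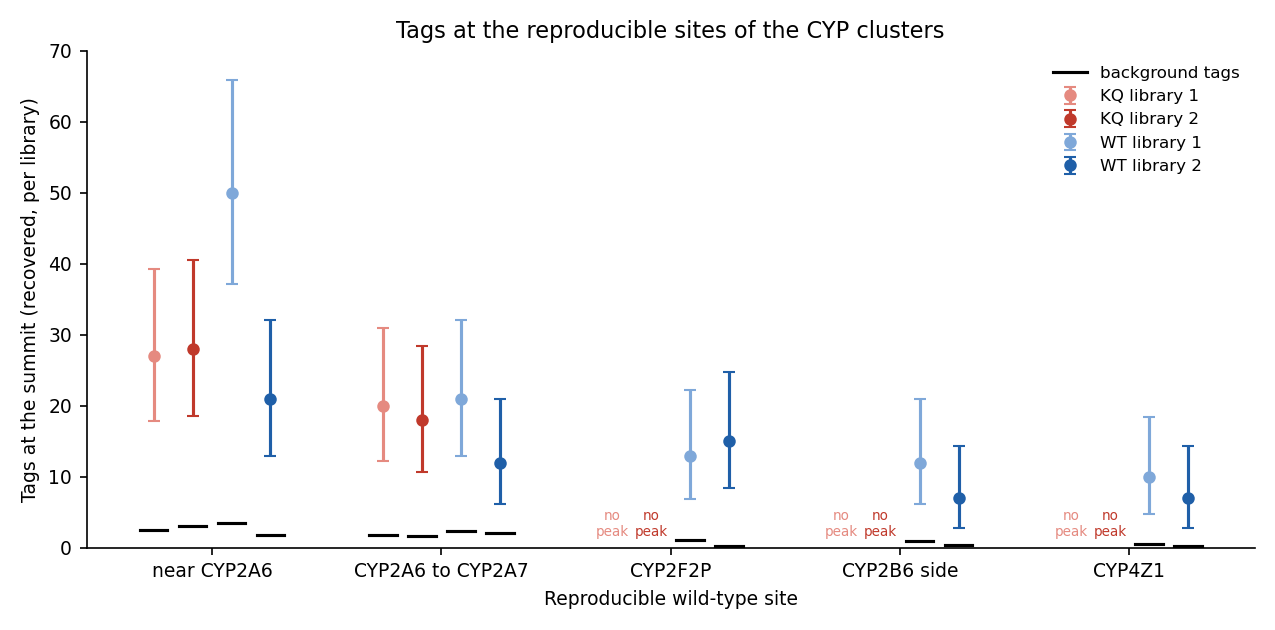
Tags at the summit in each library for the 5 reproducible wild-type sites, KQ left of wild type (WT), with 95% Poisson intervals as bars and background tags as black lines. The KQ libraries have 18 to 28 tags at the 2 shared sites and no peak at the other 3.

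The highest point of both shared sites lay elsewhere with KQ than with wild type. At the downstream site the summits were at 40832084 and 40832011 in KQ libraries 1 and 2, against 40832206 and 40832216 in wild-type libraries 1 and 2. At the site between the genes they were at 40862867 and 40862837 in the KQ libraries, against 40863056 and 40862975 in the wild-type libraries. At either site both KQ summits lay at lower coordinates, with gaps of 122 and 108 bp between the groups. The mean KQ minus wild-type position was -163.5 bp at both sites, larger than the spread within groups (SD 51.6 bp for KQ and 7.1 bp for wild type downstream, 21.2 and 57.3 bp between the genes, n = 2 each).

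This comparison was made after the values were seen, and is given as a description with no test. Of 313 sites with a peak in all 4 libraries, 36.4% had KQ and wild-type summits that did not overlap. The median size of the difference was 22.5 bp, and 3 of the 313 sites had one at least as large as theirs, namely both CYP2A sites and a site inside C19orf12 on chromosome 19. Groups were separated by 100 bp or more at 4 sites. Both CYP2A sites were wide, at 566 and 457 bp for wild type, and of the 45 and 110 sites within 0.8 to 1.25 times these widths the median difference was 27.5 and 25.0 bp. In the pooled lists the differences were -124 and -188 bp, smaller downstream of CYP2A6 and larger between the genes. By size they stood at percentiles 97.0 and 98.8 of the 2289 sites shared by those lists (median 27 bp). The midpoints of the library peaks did not follow the summits downstream of CYP2A6, where they differed by 26.0 bp in the opposite direction, and differed by -79.2 bp between the genes.

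The spacing of the shared sites was close to that of the gene pair. The pooled summits were 30786 bp apart for KQ and 30850 bp apart for wild type, while the lower ends of CYP2A6 and CYP2A7 were 31898 bp apart and their upper ends 31784 bp. No genome sequence was used here, so whether the sites are copies of each other, and whether reads were placed at one or the other by chance, was not tested.

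**Figure D3:**
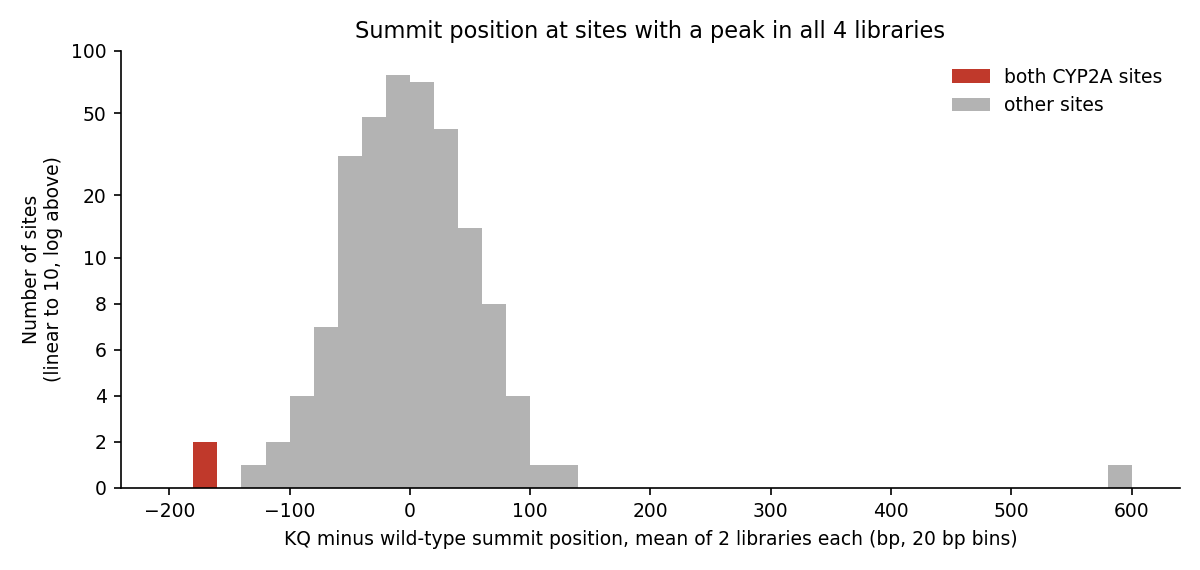
Histogram of KQ minus wild-type summit position in bp (mean of 2 libraries each) over the 313 sites with a peak in all 4 libraries, with the number of sites on an axis that is linear to 10 and logarithmic above. Both CYP2A sites (red) share the bin that holds -163.5 bp, apart from the other sites on that side.

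The other wild-type peaks of the cluster on chromosome 19 had no KQ peak in any list. The highest fold of the cluster, 12.0 in the pooled list, belonged to a reproducible peak inside the pseudogene CYP2F2P (40823776 to 40824048), 19.7 kb from CYP2A6 and 15.4 kb from EGLN2, a prolyl hydroxylase of the oxygen-sensing pathway. It had a fold of 6.74 with 13 tags in wild-type library 1 and 12.4 with 15 tags in library 2, and stood at percentile 87.2 of the pooled list by q-value. That is above the site between the genes, at percentile 72.2, which did have a KQ peak. In the q-value group of wild-type peaks that holds the CYP2F2P site, 16.3% were overlapped by a KQ peak. In all, 2 of the 13 wild-type peaks described here were overlapped by a KQ peak, against 9.10% of all pooled wild-type peaks, and 2 of the 5 reproducible ones, against 20.1%.

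CYP2B6, which metabolises bupropion and efavirenz, had 1 reproducible wild-type peak at 40962716 to 40962956, 28.5 kb upstream of its start site. It had a fold of 6.80 with 12 tags in wild-type library 1, a fold of 5.71 with 7 tags in library 2 and a pooled fold of 8.46. The nearest KQ peak was 128.4 kb from the gene. Both wild-type libraries called the site, at low tag counts.

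Wild-type peaks that were not reproducible lay around CYP2A7 and CYP2S1. A peak in the pseudogene CYP2G1P, 15.1 kb from CYP2A7, had a pooled fold of 8.52 and was called in library 1 (fold 8.02) and not in library 2. A peak 39.1 kb from CYP2A7 had a pooled fold of 3.98 and was called in neither library. CYP2S1, a P450 expressed mainly outside the liver, had 1 pooled peak, 18.3 kb away and inside AXL, a receptor tyrosine kinase, with a pooled fold of 4.57 and a call in library 1 alone. CYP2A13 had 0 peaks within 50 kb in any list, and its nearest wild-type peak was the CYP2B6 site, 125.6 kb away.

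In the CYP4 cluster the pooled wild-type peaks lay in CYP4X1, in CYP4Z1 and beyond CYP4A22, and the pooled KQ peak nearest to any gene of the cluster was 856.8 kb from CYP4A22. CYP4Z1, a fatty acid hydroxylase, held the 1 reproducible peak of the cluster inside the gene at 47069251 to 47069433 on chromosome 1. The peak lay 2.1 kb downstream of the start site used here (47067231), which is inside the gene span. The span itself begins farther upstream, at 47055525. It had a fold of 6.94 with 10 tags in wild-type library 1, a fold of 6.66 with 7 tags in library 2 and a pooled fold of 10.6. Of wild-type peaks in the same q-value group, 9.82% were overlapped by a KQ peak.

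CYP4X1, a P450 of brain and other tissues outside the liver, held 3 wild-type peaks inside the gene span, and 0 were reproducible. The peak at 47013101 to 47013507 had a pooled fold of 10.1, a fold of 8.59 with 14 tags in library 1 and no call in library 2. The peak at 47030571 to 47030719 had a pooled fold of 5.42 and a fold of 6.46 in library 1, and was not called in library 2. The peak at 47006559 to 47006714 had a pooled fold of 6.41 and was called in library 2 alone, with a fold of 6.51 and 7 tags. The libraries thus called different peaks of this gene. Asking for library 1 alone made 11 of the 13 wild-type peaks of both clusters reproducible, and asking for library 2 alone made 6.

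CYP4A22, the close relative of CYP4A11, had 2 pooled wild-type peaks within 50 kb, at 32.4 and 40.7 kb. They lay on either side of PDZK1IP1, a small membrane protein gene, and much nearer to it, at 1.4 and 0.4 kb. Their pooled folds were 4.57 and 4.32, and both were called in library 1 and not in library 2. CYP4A11, the main fatty acid omega-hydroxylase of human liver and kidney, and CYP4B1, a P450 of lung and bladder, had 0 peaks within 50 kb in any list. The nearest pooled wild-type peak was 65.1 kb from CYP4A11, inside CYP4X1, and 109.0 kb from CYP4B1. At the 50 kb limit, the farthest wild-type peak inside was the one 40.7 kb from CYP4A22 (fold 4.32), and the nearest outside lay 50.8 kb from CYP2A6 (fold 4.92, not reproducible).

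**Figure D4:**
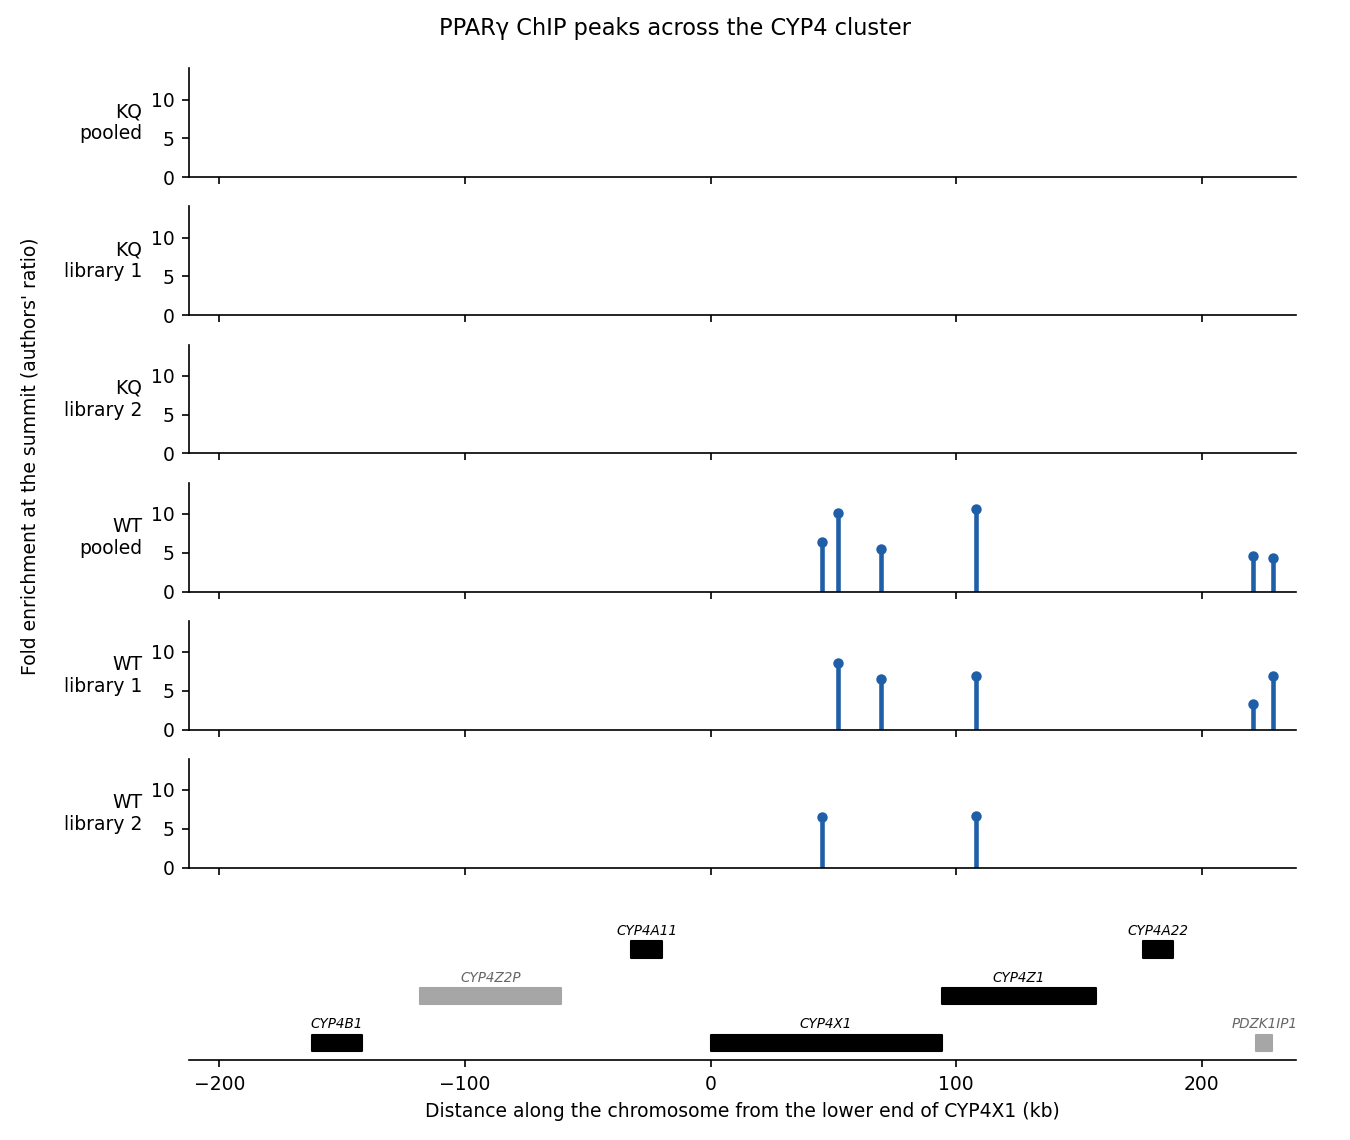
Peaks in the CYP4 cluster in 6 lists, KQ above wild type (WT), with height giving the authors' fold enrichment and position in kb from the lower end of CYP4X1. The KQ lists are empty here, and the CYP4Z1 site is the only one in both wild-type libraries.

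No pooled peak had its summit on the upstream stretch of a start site. The RefSeq table held 9 such stretches for 8 of the 10 genes, and none for CYP4A11 or CYP4A22. Those nearest to wild-type peaks are shown, the inner start of CYP4X1 (chr1:47023419-47023668, plus strand), 7.0 kb from the nearest wild-type summit, and CYP4Z1 (chr1:47066981-47067230, plus strand). Capitals mark the hexamer AGGTCA or, on the other strand, TGACCT.
CYP4X1: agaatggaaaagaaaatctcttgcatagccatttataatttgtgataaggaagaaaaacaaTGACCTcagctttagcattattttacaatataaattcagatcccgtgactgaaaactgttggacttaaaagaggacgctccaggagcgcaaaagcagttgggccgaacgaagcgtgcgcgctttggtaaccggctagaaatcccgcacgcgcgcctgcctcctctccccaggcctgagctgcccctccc
CYP4Z1: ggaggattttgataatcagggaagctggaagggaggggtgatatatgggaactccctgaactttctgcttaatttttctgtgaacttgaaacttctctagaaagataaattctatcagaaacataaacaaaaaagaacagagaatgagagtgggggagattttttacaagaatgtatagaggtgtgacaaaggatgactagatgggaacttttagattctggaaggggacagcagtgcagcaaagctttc

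The hexamer was found on either strand in 3 of the 9 stretches, those of CYP2B6, CYP2S1 and the inner start of CYP4X1, against 12.0% of 34789 stretches of the same length. The direct repeat of 2 hexamers spaced by 1 base, with up to 2 mismatches on either strand, was found in 0 of the 9, against 2.56%. The stretches of CYP2A6, CYP2A7 and CYP4Z1 held neither. The sites themselves were not read, so these letters describe the start sites only.

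Among the 47 other cytochrome P450 genes on the lists used here, 1 had a reproducible KQ peak and 10 a reproducible wild-type peak, or 2.13% and 21.3%. The one with a KQ peak was CYP1A2, which oxidises caffeine, 43.7 kb from a site with a pooled fold of 8.28 for KQ and 23.0 for wild type. The other CYP4 genes, CYP4V2 and the CYP4F cluster, had 0 of 7 with a reproducible peak in either group. The other CYP2 genes had 0 of 11 with KQ and 2 of 11 with wild type, CYP2U1 (pooled fold 14.3), a fatty acid hydroxylase, and CYP2R1 (9.49), a vitamin D hydroxylase of liver. The CYP1 and CYP3 genes had 1 of 7 with KQ and 2 of 7 with wild type, CYP1A2 and its neighbour CYP1A1 (13.1), a target of the AHR receptor. All CYP3A genes lacked a reproducible peak.

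Sterol, vitamin and prostanoid P450 genes had 0 of 22 with a reproducible KQ peak and 6 of 22 with a reproducible wild-type peak. The 5 with the highest wild-type fold were CYP27C1 (11.4), CYP27A1 (10.9), a sterol hydroxylase of bile acid synthesis, CYP26B1 (10.4), which clears retinoic acid, CYP24A1 (8.18), which clears vitamin D, and CYP21A2 (7.73), a steroid hydroxylase of the adrenal. Partners and regulators of P450 enzymes had 0 of 8 with KQ and 7 of 8 with wild type. They were led by AHR (17.4), a receptor for dioxin-like compounds, POR (13.8), the reductase that feeds electrons to these enzymes, CYB5R3 (12.5), NR1I3 (12.3), which encodes CAR, and CYB5A (10.8). The differences between these lists were not tested.

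**Figure D5:**
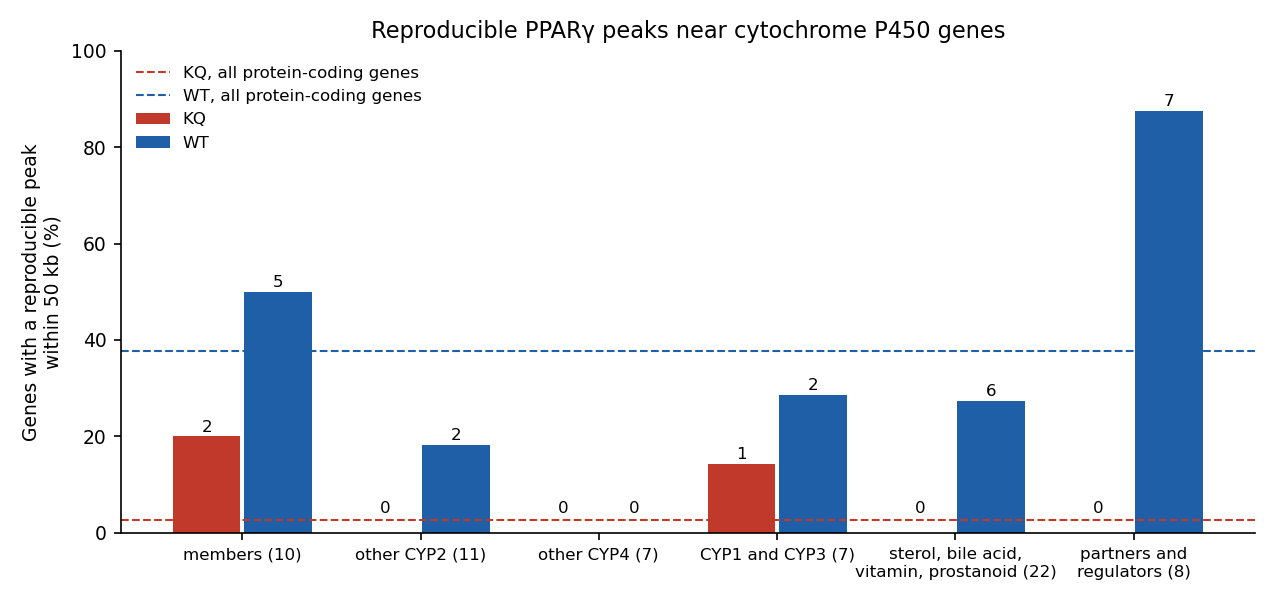
Share of genes with a reproducible peak within 50 kb (percent), KQ left of wild type (WT), for the 10 genes described here and for other P450 genes and their partners, with the number of genes above each bar. Dashed lines give all protein-coding genes, 2.68% for KQ and 37.7% for wild type.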

How the data were processed

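ChIP libraries of KQ and wild-type cells were used, 2 of each. Per the submitters' processing notes, Bowtie2 (version 2), MACS2, bedtools, deepTools and HOMER were used with the hg38 build. The sources used here do not state caller settings or a control. Per the file names in the labels, peaks were called by the authors per library and on the pooled libraries of each group, 6 lists in all. For every peak the deposited lists give a fold enrichment (a ratio at the summit), −log10 of the p-value and q-value, a score that restates q, and a summit, all the authors' values.

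Intervals sharing 1 bp or more were taken as overlapping (python 3.11.15, pandas 2.3.3, scipy 1.17.1). Gene spans and upstream stretches came from RefSeq (GRCh38.p14), the assembly of hg38. Whole tags P and background b at a summit were solved from fold = (P + 1)/(b + 1) and the Poisson p. The solution met the deposited −log10 p within 0.001 for 100% of peaks in each list, and it was checked on simulated data. It gives tags at called summits, and counts this small limit each value to wide intervals. The genes and the gene lists were chosen with earlier results of these data known. Named were all 10 genes, their peaks with the genes at them, other listed genes with a reproducible KQ peak, and up to 5 per list by wild-type fold. A permutation test foreseen for the peaks per library is not given, because the choice of genes used those peaks. Peaks on the mitochondrial chromosome, Y and unplaced sequences were left out.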

Additional observations from a re-analysis of the deposited data

How the results depend on the processing

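Of 38 alternatives for the numbers of peaks and genes, 26 stayed within 1.5 times and 12 moved further. A 10 kb window left 0 pooled and 0 reproducible KQ peaks, 0 genes with a reproducible KQ peak, 4 pooled and 1 reproducible wild-type peak, 0 wild-type peaks overlapped by KQ and 1 gene with a reproducible wild-type peak, since 9 of the 13 wild-type peaks, both shared sites among them, lie over 10 kb from these genes. Keeping only as many wild-type peaks as KQ peaks left 1 pooled wild-type peak, which was reproducible and overlapped by KQ, and 2 genes with a reproducible wild-type peak. Leaving out a replicate gave 6 to 11 reproducible wild-type peaks, 11 without replicate 2. It gave 5 to 7 genes with one, and left 2 KQ peaks and 2 KQ genes. A 100 kb window, −log10 q of at least 3 and an overlap of at least 50% of the shorter interval moved no count by over 1.5 times.

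The comparison of summits was added after seeing the data. Leaving out a library gave -200.0 to -127.0 bp downstream of CYP2A6 and -204.0 to -123.0 bp between the genes. With peak midpoints the CYP2A6 value reversed to 26.0 bp, and the other was -79.2 bp. No paired analysis was possible because no reported result comes from a test: counts, tags and summits are given as values per library or list. Sites with few tags, above all in wild-type library 2, limit which peaks can be called in both libraries.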

Other observations

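4 wild-type library peaks near these genes fell outside every pooled wild-type peak. Library 1 had one 4.8 kb from CYP2A7 (fold 4.95, 6 tags). Library 2 had one 20.2 kb from CYP2A6 (fold 4.09, 4 tags), one 22.7 kb from CYP2A7 (fold 5.98, 9 tags) and one 41.6 kb from CYP2B6 (fold 4.90, 5 tags). The KQ libraries had no such peak.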
